A study of Homo sapiens with 8 samples.

Results

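The 9 genes described here present antigen on MHC class I molecules or switch that presentation on, and they were taken as a fixed list of *HLA-B*, *HLA-C*, *B2M*, *TAP1*, *TAP2*, *PSMB8*, *PSMB9*, *NLRC5* and *CIITA* among the 64486 genes annotated on GRCh37. All 9 are protein coding, as are 20176 of the annotated genes. DNA methylation was read from MBD-seq, in which a methyl-CpG binding domain captures methylated DNA fragments for sequencing and regions rich in fragments are called as peaks. One library was sequenced for each of 8 established neuroblastoma (NB) cell lines. CHP-902R, IMR-32, LAN-2 (labelled LA-N-2) and N206 are *MYCN* amplified (MNA), whereas SK-N-AS, SH-SY5Y, SJNB-1 and CLB-GA have a single copy of the gene (single copy). The labels give no treatment, and a cell line differs from every other line in far more than *MYCN*, so the 4 lines of a group served as its replicates.

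A class I molecule consists of a heavy chain, such as those of *HLA-B* and *HLA-C*, and the light chain beta-2-microglobulin of *B2M*. Proteasomes that carry the interferon-induced subunits of *PSMB8* and *PSMB9* cut proteins into peptides, and the transporter of *TAP1* and *TAP2* moves these into the endoplasmic reticulum, where they are loaded. *NLRC5* and *CIITA* encode related transactivators, which bind no DNA themselves and act through factors sitting on the promoters, *NLRC5* mainly on class I genes and *CIITA* mainly on class II genes. NB tumors and cell lines are known for low class I levels on the cell surface.

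The lists held 70816 (SJNB-1) to 112412 peaks (LAN-2) and covered 1.39% to 2.13% of the genome. Within 1 Mb of *MYCN*, peaks covered 8.68% to 19.8% of the DNA in the MNA lines and 1.87% to 4.76% in the single copy lines, so the lists follow their labels there. The peaks have a score that is higher for a lower p-value of the peak caller. Scores were compared only within a list, except that a fixed cutoff of 100 was also applied to all lists. Peaks at or above 100 made up 11.5% (SK-N-AS) to 22.8% (LAN-2) of a list, so this cutoff is not equally strict in each line. The lists come without read counts, and the study gives the number of reads only as a range over the lines, so that a missing peak was read as not detected rather than as unmethylated DNA.

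The sequences under the peaks nearest to the starts of these genes differed in how many CpG, the captured dinucleotide, they hold. The central stretch outside annotated UTRs is given for 4 of the 6 peaks in a window of 1500 bp upstream to 1000 bp downstream of a canonical transcription start site (TSS), the start of the 1 transcript that the annotation sets as canonical for the gene. Sequences were read from GRCh37 on the strand of the gene, with CpG in capitals.
HLA-B, peak of IMR-32, chr6:31324178-31324377, minus strand, 22 CpG: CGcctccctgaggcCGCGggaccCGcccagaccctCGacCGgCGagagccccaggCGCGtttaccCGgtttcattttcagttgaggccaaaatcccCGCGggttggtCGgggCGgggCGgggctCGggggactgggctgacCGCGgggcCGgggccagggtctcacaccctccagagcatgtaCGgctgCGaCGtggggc
HLA-C, peak of IMR-32, chr6:31239459-31239658, minus strand, 26 CpG: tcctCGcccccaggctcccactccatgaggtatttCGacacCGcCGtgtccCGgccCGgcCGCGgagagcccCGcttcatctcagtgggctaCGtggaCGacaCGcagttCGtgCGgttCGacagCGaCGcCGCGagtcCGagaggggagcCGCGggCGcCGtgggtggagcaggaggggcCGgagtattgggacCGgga
PSMB8, peak of IMR-32, chr6:32811561-32811760, minus strand, 18 CpG: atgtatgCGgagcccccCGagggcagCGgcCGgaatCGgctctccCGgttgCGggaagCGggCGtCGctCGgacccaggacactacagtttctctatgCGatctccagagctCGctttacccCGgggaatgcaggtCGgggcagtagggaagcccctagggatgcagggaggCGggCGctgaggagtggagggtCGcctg
CIITA, peak of IMR-32, chr16:10971313-10971512, plus strand, 3 CpG: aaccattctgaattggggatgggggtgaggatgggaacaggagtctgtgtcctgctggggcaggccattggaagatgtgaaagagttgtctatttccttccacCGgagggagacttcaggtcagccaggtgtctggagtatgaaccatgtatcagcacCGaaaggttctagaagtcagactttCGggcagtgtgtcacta
The *HLA-C* stretch lies mostly in coding sequence (187 of 200 bp), as does that of *PSMB8* (134 of 200 bp), whereas the *HLA-B* stretch holds 42 bp of coding sequence and is otherwise intron. The *CIITA* stretch holds no exon of the canonical transcript.

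At the canonical starts, IMR-32 stood apart. It had a peak in the windows of 5 of the 9 genes, *HLA-B*, *HLA-C*, *TAP2*, *PSMB8* and *CIITA*. SJNB-1 had a peak at 1 gene, *NLRC5*, and the other 6 lines had none. The share of all protein-coding genes with such a peak was also highest in IMR-32, at 21.0%, against 14.2% to 17.8% in the other lines. At least 1 line had such a peak for 6 of these 9 genes, against 48.5% of all protein-coding genes. IMR-32 also had the widest peaks, at 646 bp on average, and the highest cover of the DNA from *HLA-F* to *HLA-DPB1* (2.35%, against 1.41% to 2.27%), and the part of either in its count was not tested. IMR-32 is 1 library, so its 5 genes have no replicate. All 5 peaks scored under 100, and none was left when a score of at least 100 was asked for. At that score, only 5.75% of all protein-coding genes had such a peak in IMR-32. When each list was cut to its top 70816 peaks, IMR-32 kept 4 of the 5 and lost *TAP2*, beside 17.6% of protein-coding genes.

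**Figure D1:**
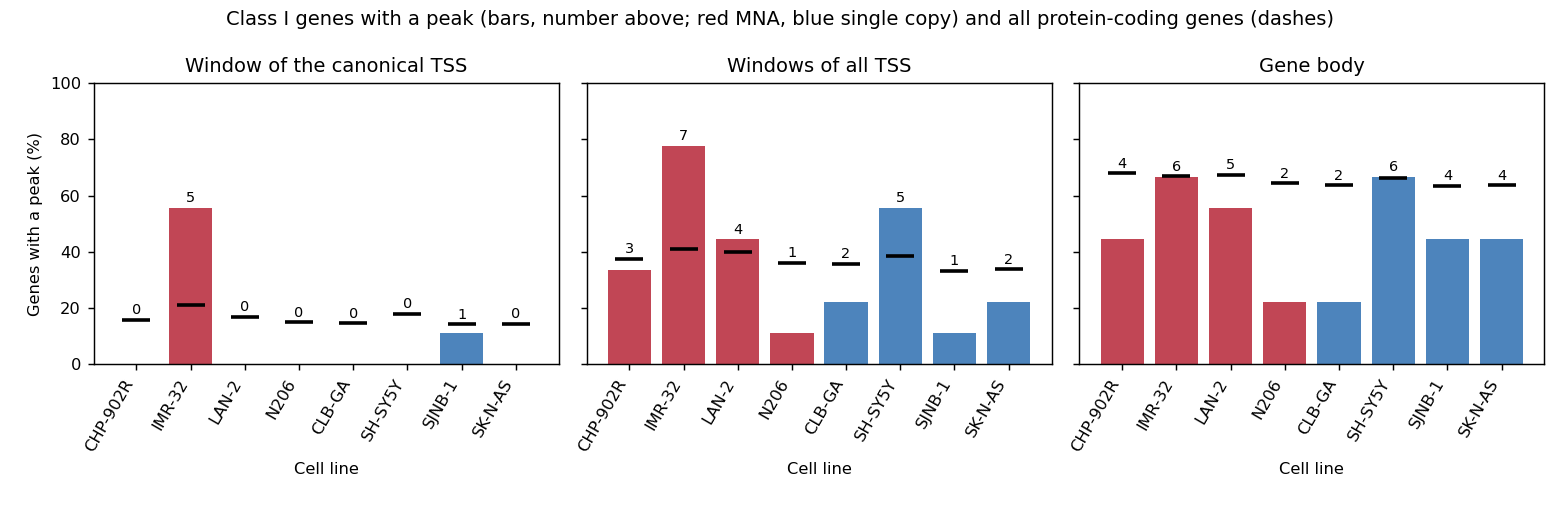
Bars give the percent of the 9 class I genes with a peak in each cell line (number above each bar) and dashes the percent of all protein-coding genes, for the window of the canonical TSS, the windows of all TSS and the gene body. IMR-32 has 5 genes in the first panel, SJNB-1 has 1, and the other 6 lines have none.

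The 5 peaks of IMR-32 differed in place and in CpG content. That of *HLA-B* (chr6:31324002-31324554, score 68.9) lay in exons 2 and 3 and the intron between them and held 11.2 CpG per 100 bp. That of *HLA-C* (chr6:31239300-31239819, score 81.2) lay in exons 1 and 2 and held 10.6 CpG per 100 bp. Exons 2 and 3 of class I heavy chains encode the groove that holds the peptide. The *PSMB8* peak (chr6:32811550-32812111, score 74.8) spanned the start and the first exon at 6.23 CpG per 100 bp. The *CIITA* peak (chr16:10970961-10971639, score 96.6) also spanned the start, but at 2.06 CpG per 100 bp. The *TAP2* peak (chr6:32806862-32807481, score 53.9) began 346 bp upstream of the start, and 9.85% of the peaks of IMR-32 scored lower. Of its 45-base windows, 80.6% occur once in GRCh37, against 90.6% for the *HLA-B* peak, 91.4% for *HLA-C* and 100% for *PSMB8* and *CIITA*.

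The windows of the 9 canonical starts held 1.64 (*CIITA*) to 5.56 CpG per 100 bp (*TAP1* and *PSMB9*), around a median of 4.20 over 19894 windows of protein-coding genes and against 0.985 in the genome. *CIITA* was the poorest in CpG, at percentile 18.0 of those windows. *B2M* at 3.96 and *TAP1* at 5.56 CpG per 100 bp had no peak in the window in any line, and all of their 45-base windows are unique. The starts with a peak ranged from 1.64 to 5.52 CpG per 100 bp.

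**Figure D2:**
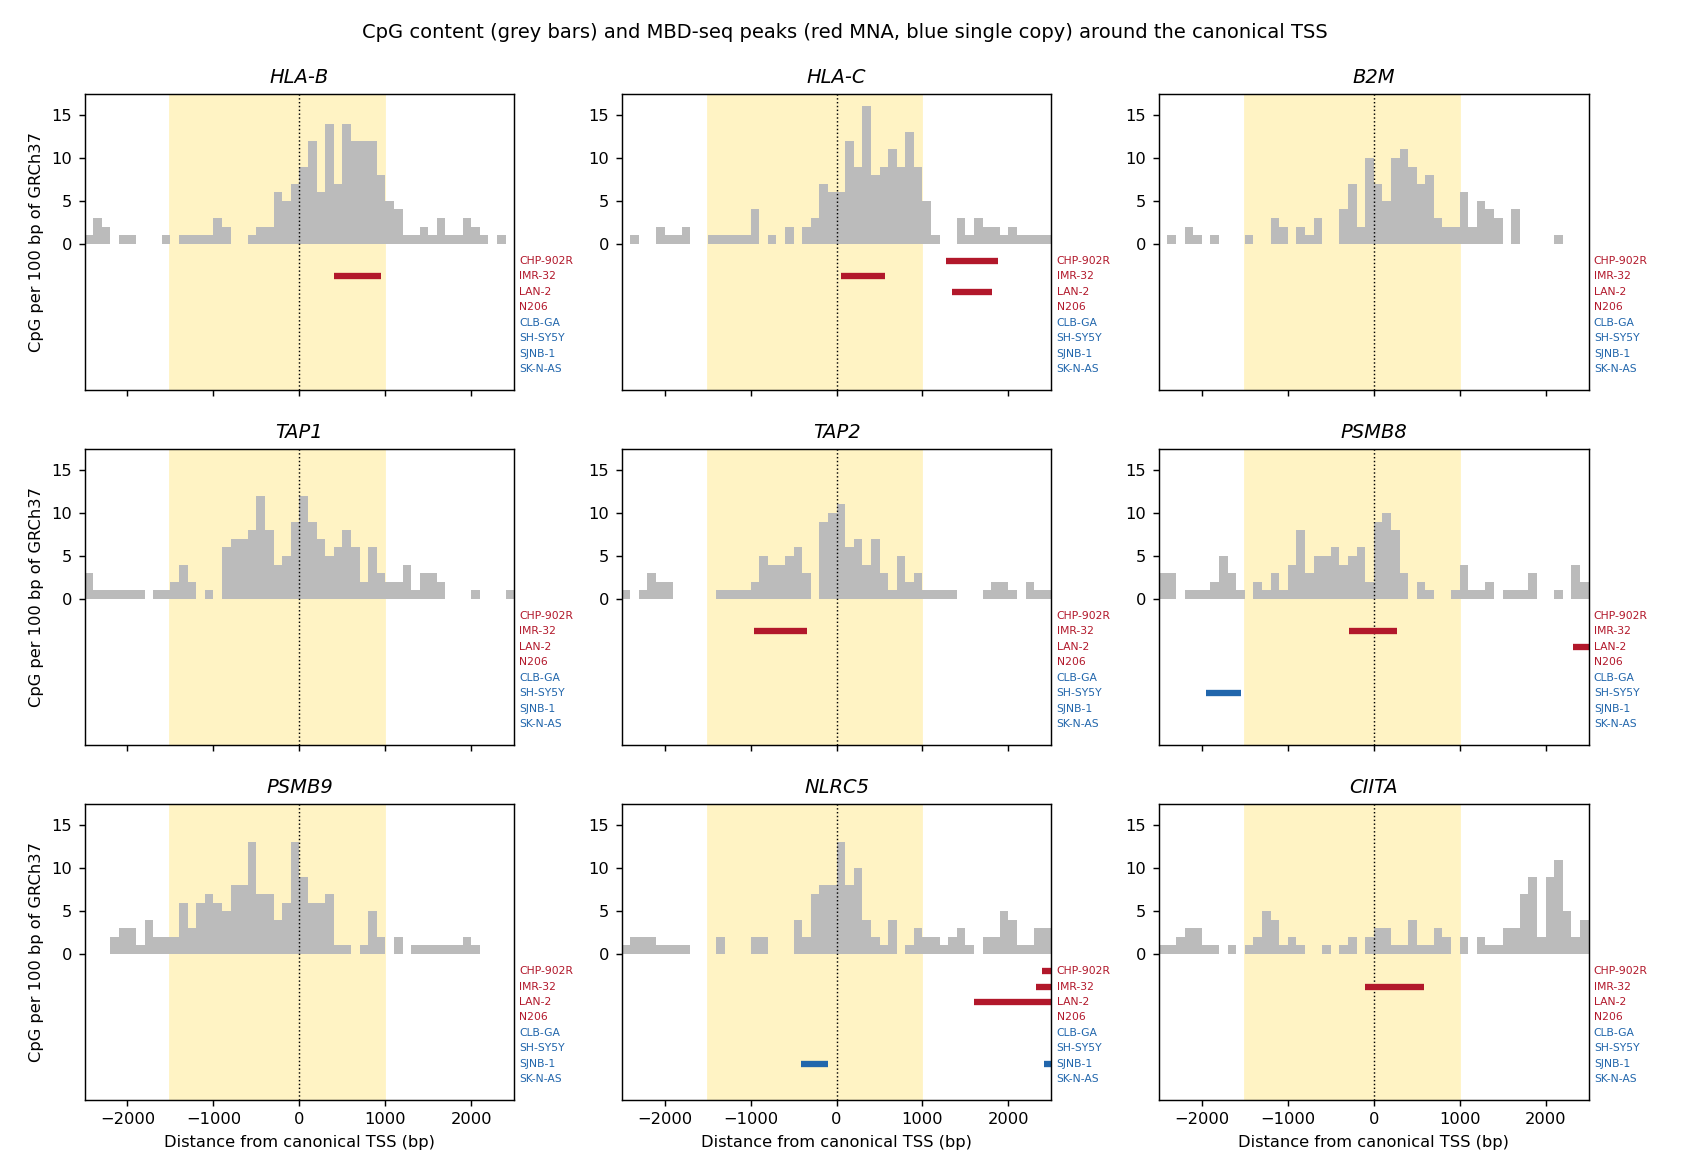
Grey bars give the number of CpG in each 100 bp of GRCh37 against the distance from the canonical TSS in bp, and lines below 0 give the peaks of each cell line (red MNA, blue single copy). The shaded window from -1500 to +1000 bp holds a peak of IMR-32 in 5 panels and of SJNB-1 in that of NLRC5, and no peak in those of B2M, TAP1 and PSMB9.

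When windows were placed around every annotated TSS, of which these genes have 5 to 28, 7 of the 9 had a promoter peak in 1 line or more, beside 73.9% of protein-coding genes. A peak in at least 4 lines was found for 3 (*HLA-C*, *NLRC5* and *CIITA*), beside 39.5%, and in all 8 lines for *NLRC5* alone, beside 6.11%. In the canonical window, *HLA-C* and *CIITA* had a peak in IMR-32 alone and *NLRC5* in SJNB-1 alone. Their promoter calls in the other lines came from other annotated starts within the genes. The number of genes with a promoter peak was 7 in IMR-32, 4 in LAN-2, 3 in CHP-902R and 1 in N206, and 5 in SH-SY5Y, 2 in SK-N-AS, 2 in CLB-GA and 1 in SJNB-1. The mean over the MNA lines was 3.75 ± 2.50 genes, that over the single copy lines was 2.50 ± 1.73 (SD, n = 4 each), and the groups overlapped. Of all protein-coding genes, 33.2% (SJNB-1) to 40.9% (IMR-32) had a promoter peak in a given line. In the gene bodies, the counts of the 9 genes were 6, 5, 4 and 2 in the same order of the MNA lines and 6, 4, 2 and 4 in that of the single copy lines, with means of 4.25 ± 1.71 and 4.0 ± 1.63 genes (SD, n = 4 each). The share of all protein-coding genes with a body peak was 63.5% (SJNB-1) to 67.9% (CHP-902R) in a given line. A body peak in at least 1 line was found for 8 of the 9 genes, beside 88.3% of protein-coding genes, and in all 8 lines for *NLRC5* and *CIITA*, beside 32.8%.

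**Figure D3:**
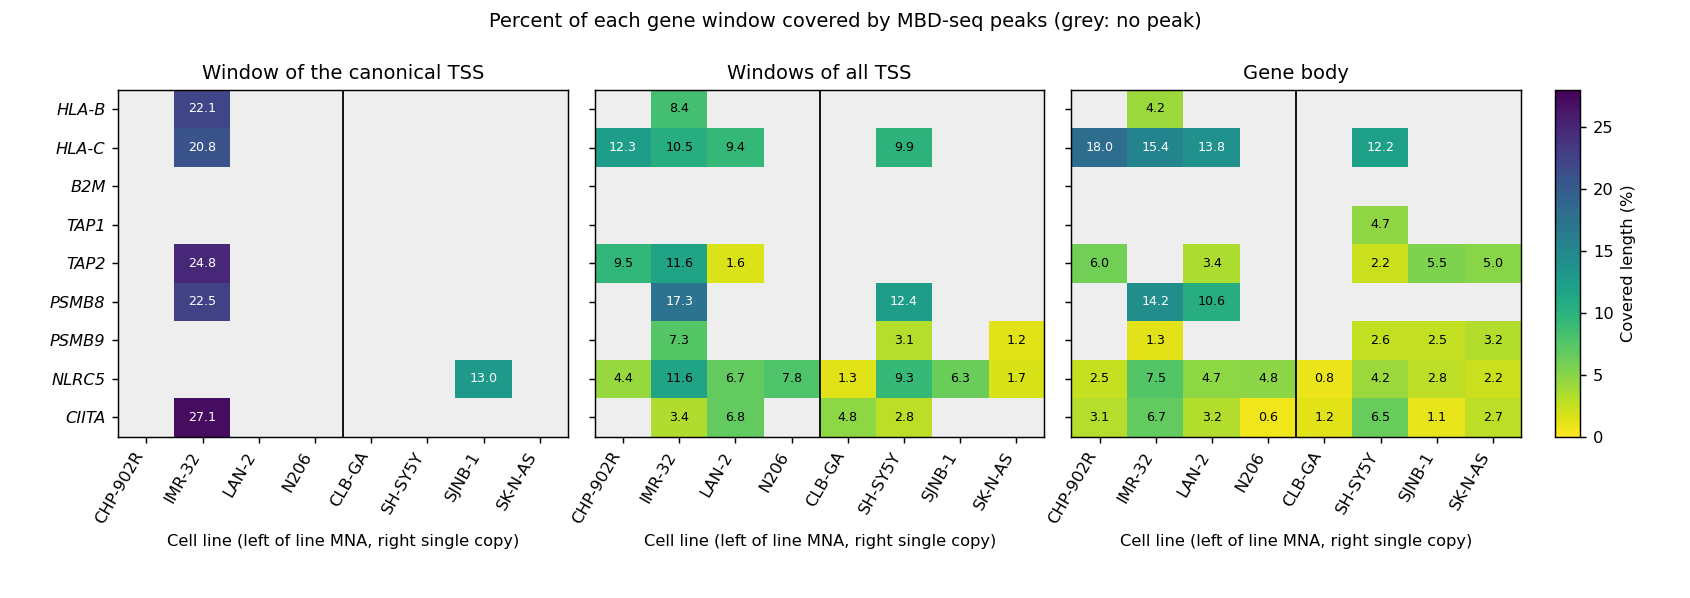
Each cell gives the percent of a gene's window covered by peaks in 1 cell line, for the window of the canonical TSS, the windows of all TSS together and the gene body, with grey for no peak. The first panel is filled by IMR-32 at 5 genes and SJNB-1 at NLRC5, the row of B2M is empty throughout, and only the NLRC5 row is filled in all lines of the second panel.

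Whether a peak followed *MYCN* status was asked for each gene with a two-sided Fisher's exact test over the lines. Promoter peaks in all lines of one group and none of the other were found for 127 of all genes (0.197%) and body peaks of this kind for 77 (0.119%). None of the 9 genes did, and none had p under 0.05, where 4 lines against 4 allow no p under 0.0286. The closest was *TAP2*, with a promoter peak in 3 MNA lines and 0 single copy lines (exact p = 0.143). These peaks were not all at the same place. Those of CHP-902R and LAN-2 overlapped at exon 11, and that of IMR-32 was upstream of the gene. Leaving out N206, the MNA line that lacks a promoter peak, fixes the exact p at 0.0286, the smallest that 3 lines against 4 allow. With any other line left out, the exact p was 0.143. The difference of 75.0 percentage points of lines was 50.0 (exact p = 0.429) at a score of at least 100, with lists of equal length, by peak midpoint or with windows to 500 bp downstream, and 25 (exact p = 1.00) with 1 TSS per gene. *HLA-C* had 3 MNA lines and 1 single copy line (exact p = 0.486). The percent of the promoter windows covered by peaks was compared in two-sided exact permutation tests over the lines, in which 436 of all genes (0.676%) had p under 0.05. None of the 9 genes was among them, with *TAP2* lowest at 5.67% ± 5.74 against 0% in the single copy lines (SD, n = 4 each, exact p = 0.143). After adjustment over all genes, each of these tests gave an adjusted p of 1.00 for the 9 genes.

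The heavy chain genes had few peaks. *HLA-B* (chr6:31321649-31334844) had 1 peak in 1 line, that of IMR-32. In the other lines, the nearest peak was 48747 bp (SJNB-1) to 175821 bp (N206) from its start. *HLA-C* (chr6:31236526-31239907) had 1 peak in each of 4 lines, at 3 places. Peaks covered 18.0% of its body in CHP-902R, 13.8% in LAN-2, 15.4% in IMR-32 and 0% in N206, and 12.2% in SH-SY5Y and 0% in the other 3 single copy lines. CHP-902R (score 107) and LAN-2 (score 61.0) shared a region over exon 4, which encodes the domain that CD8 contacts, at 1.81 and 1.93 CpG per 100 bp. SH-SY5Y had its peak (score 85.5) at the last exon, mostly in annotated UTR. The peak of IMR-32 at exons 1 and 2 was therefore not found in the other lines with *HLA-C* peaks. Of the 45-base windows of the bodies, 94.3% (*HLA-B*) and 93.2% (*HLA-C*) are unique in GRCh37. This count compares GRCh37 with itself. How reads from other alleles of these genes align was not tested.

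*B2M* (chr15:45003556-45011049), the light chain shared by all class I molecules, was the 1 gene of the 9 with no peak in window or body in any line. The peak nearest to its start was 5984 bp away in SK-N-AS, 8461 in IMR-32, 9771 in SH-SY5Y, 9826 in LAN-2, 21483 in CLB-GA, 27709 in CHP-902R, 46628 in N206 and 50418 in SJNB-1. The lack of a promoter peak alone, in all lines, was shared by 5271 other protein-coding genes (26.1%). A stretch just upstream of the canonical start is given because it stayed free of peaks while holding 5.95 CpG per 100 bp.
B2M, upstream, chr15:45003522-45003706, plus strand, 11 CpG: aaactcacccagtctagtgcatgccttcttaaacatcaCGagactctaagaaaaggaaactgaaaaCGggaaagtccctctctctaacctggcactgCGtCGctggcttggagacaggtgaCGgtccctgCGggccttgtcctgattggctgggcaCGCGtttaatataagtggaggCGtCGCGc
The promoters of class I genes are known to carry a module bound by the RFX, CREB and NF-Y factors, through which *NLRC5* acts, and a site of interferon regulatory factors. Letters of such sites were searched on both strands in the 200 bp upstream of the canonical TSS. ATTGG, the core of the NF-Y box, was found in *HLA-B*, *HLA-C* and *B2M*, against 30.4% of 19894 promoters of protein-coding genes. TGACG, part of the CREB site, was found in 5 of the 9 genes, those 3 with *TAP2* and *PSMB9*, against 22.6% of promoters. GAAANNGAAA, the repeat that interferon regulatory factors bind, was found in *B2M*, *TAP1*, *TAP2* and *CIITA*, against 2.19% of promoters. Matches to different motifs can share at most 1 base, and a match describes the letters only.

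*TAP2*, *PSMB8*, *TAP1* and *PSMB9* lie side by side in the class II part of the MHC on chromosome 6. *TAP1* and *PSMB9* start in opposite directions, with 331 bp between the nearest annotated starts, and no line had a peak in the canonical window of either. These windows (chr6:32820481-32822981 and chr6:32820469-32822969) are nearly the same DNA, so they are not separate observations. The nearest peak to the start of *TAP1* was 3301 bp away in SK-N-AS and 3426 in SJNB-1, and 7704 (SH-SY5Y) to 123663 bp (CLB-GA) in the other lines. The sequence between the starts holds 3.5 CpG per 100 bp in the stretch given.
TAP1 and PSMB9, between the starts, chr6:32821659-32821858, minus strand, 7 CpG: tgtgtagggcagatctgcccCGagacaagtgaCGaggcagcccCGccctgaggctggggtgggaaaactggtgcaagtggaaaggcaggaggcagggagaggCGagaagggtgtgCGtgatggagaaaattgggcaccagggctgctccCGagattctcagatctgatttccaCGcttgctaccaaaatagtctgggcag
*TAP1* (chr6:32812986-32821593) had a peak in SH-SY5Y only (chr6:32813374-32813777, score 59.5), over exon 11 at its far end, covering 4.69% of the body. The same peak lies upstream of *PSMB8*, 1550 bp from its start, and within the long annotated form of *PSMB9*, and it was counted once for each of these genes.

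*TAP2* (chr6:32789610-32806516) had a body peak in 5 lines. Peaks covered 5.96% of its body in CHP-902R, 3.42% in LAN-2 and 0% in IMR-32 and N206, and 5.45% in SJNB-1, 5.0% in SK-N-AS, 2.20% in SH-SY5Y and 0% in CLB-GA. The lines with a peak did not all have it at the same place. CHP-902R (score 102) and LAN-2 (score 105) overlapped at exon 11, where a further annotated TSS made the peak count as a promoter peak. SJNB-1 (score 51.4) and SK-N-AS (score 63.3) overlapped at exon 6, and again past the end of the canonical transcript with scores of 53.1 and 50.4. The single peak of SH-SY5Y was at exon 4 (score 82.1), and that of IMR-32 was upstream of the gene.

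*PSMB8* (chr6:32808494-32812456) had the start peak of IMR-32 and a peak of LAN-2 over exon 5 (score 75.4), covering 14.2% and 10.6% of the body, and none in the bodies of the other 6 lines (exact p = 0.429 for 2 MNA lines against 0). *PSMB9* (chr6:32811913-32827628) had body peaks in 4 lines. In SJNB-1 (score 83.0) and SK-N-AS (score 88.2) these overlapped at exon 3, 2938 and 2813 bp downstream of the canonical start. In IMR-32 and SH-SY5Y they were the peaks at *PSMB8* and the end of *TAP1*, which fall in a transcript of *PSMB9* that starts inside *PSMB8*. No peak in the 4 genes was found in N206 or CLB-GA.

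**Figure D4:**
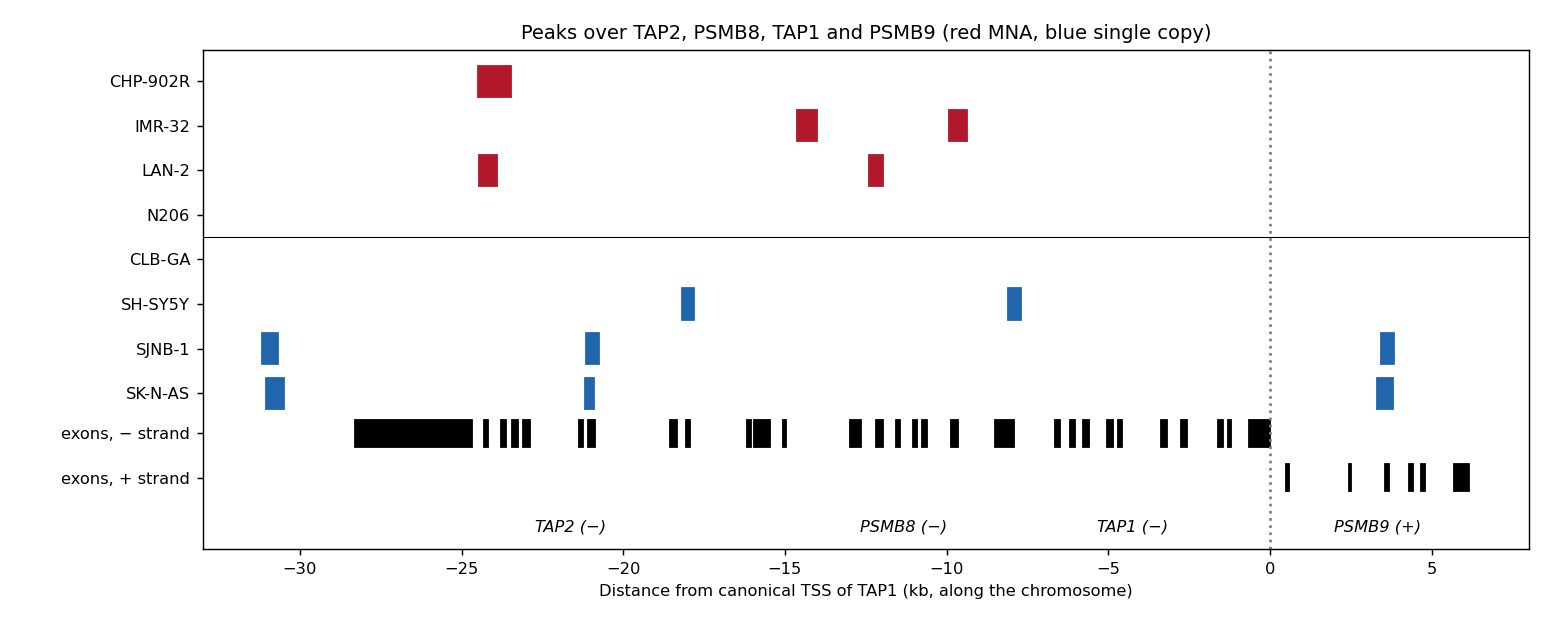
Boxes give the peaks of each cell line (red MNA, blue single copy) along TAP2, PSMB8, TAP1 and PSMB9 against the distance from the canonical TSS of TAP1 in kb, with exons of the canonical transcripts by strand below. CHP-902R and LAN-2 overlap in TAP2, SJNB-1 and SK-N-AS overlap at 2 places in TAP2 and 1 in PSMB9, and the rows of N206 and CLB-GA are empty.

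The transactivator genes, both long, held most of the peaks. Of 99 distinct peaks at the 9 genes, 53 were at *NLRC5* and 28 at *CIITA*. Of the 99 peaks, 13 scored at least 100. *NLRC5* (chr16:57023397-57117443, 49 exons) had 12 body peaks in IMR-32, 9 in N206, 8 in LAN-2 and 5 in CHP-902R, and 6 in SH-SY5Y, 5 in SK-N-AS, 5 in SJNB-1 and 2 in CLB-GA. They covered 2.48% to 7.46% of the body in the MNA lines and 0.849% to 4.25% in the single copy lines, so the groups overlapped. The means were 4.88% ± 2.03 and 2.52% ± 1.41 (SD, n = 4 each, two-sided exact permutation test, p = 0.0857, adjusted p = 1.00 over all genes). Over the whole genome, the MNA lines also had more cover, at 1.83% to 2.13% against 1.39% to 1.83%, and its part in the difference was not tested. Of the 53 peaks, 25 lay in introns alone and 24 touched coding sequence.

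The promoter call of *NLRC5* in all 8 lines rested on its 28 annotated TSS, whose windows add up to 34622 bp, and 1232 other protein-coding genes shared this pattern. At the canonical start, the one peak was that of SJNB-1 (chr16:57023050-57023375, score 64.0), at 5.21 CpG per 100 bp and 94 bp from the start. LAN-2 had its nearest peak 1600 bp downstream, and IMR-32, CHP-902R and SJNB-1 had further peaks in the same intron. Those of LAN-2, IMR-32, CHP-902R and SJNB-1 overlapped in 1 region (chr16:57025069-57026326).

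One *NLRC5* region separated the *MYCN* groups (chr16:57077230-57078037), with a peak in all 4 MNA lines and in 0 single copy lines. It contains exon 20, a coding exon of 90 bp, in each of the 4 lines. The scores were 93.1 in CHP-902R, 75.8 in N206, 73.9 in LAN-2 and 72.0 in IMR-32, so no peak reached 100. The exact p was 0.0286 (two-sided Fisher's exact test) and the adjusted p over 369287 merged regions was 1.00. Regions that separated the groups in either direction made up 0.159% of all, or 588, of which 442 had their peaks in the MNA lines. This region was chosen after its values were seen, and 90.4% of its 45-base windows are unique. The stretch shared by the 4 peaks and free of annotated UTR begins right after exon 20 and holds 2.40 CpG per 100 bp.
NLRC5, intron after exon 20, chr16:57077517-57077683, plus strand, 4 CpG: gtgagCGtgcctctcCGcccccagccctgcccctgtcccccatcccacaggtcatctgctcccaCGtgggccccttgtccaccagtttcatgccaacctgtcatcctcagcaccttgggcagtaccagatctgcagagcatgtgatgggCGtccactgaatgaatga

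*CIITA* (chr16:10960079-11036878, 20 exons) had 5 body peaks in IMR-32, 4 in CHP-902R, 3 in LAN-2 and 1 in N206, and 7 in SH-SY5Y, 4 in SK-N-AS, 2 in CLB-GA and 2 in SJNB-1. In the same order, they covered 6.72%, 3.08%, 3.20% and 0.630% of the body in the MNA lines and 6.50%, 2.74%, 1.25% and 1.09% in the single copy lines. IMR-32 and SH-SY5Y, 1 line of each group, were highest. The means were 3.41% ± 2.51 and 2.90% ± 2.51 (SD, n = 4 each, exact permutation p = 0.771). Promoter peaks at any TSS were found in 2 lines of each group (exact p = 1.00). An intron peak in SH-SY5Y (chr16:10993578-10993982, score 134), which no other line had, scored above 95.0% of the peaks of that line, and 68.1% of its 45-base windows are unique. CHP-902R and SK-N-AS overlapped upstream of the canonical start (midpoints at -9505 and -9471 bp), and SK-N-AS and SH-SY5Y overlapped in the first intron (5715 and 5756 bp). LAN-2 and CLB-GA overlapped at exons 17 and 18, and IMR-32, LAN-2 and SH-SY5Y past the end of the canonical transcript (61513, 61471 and 61360 bp), so most places with shared peaks drew lines from both groups.

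The region shared by most lines among the 9 genes was exon 11 of *CIITA*, with peaks in IMR-32, SH-SY5Y, CHP-902R, SK-N-AS and SJNB-1. This exon encodes the nucleotide-binding part of the protein. It is 1651 bp long and holds 91 CpG (5.51 per 100 bp), and all of its 45-base windows are unique. Peaks covered 100% of the exon in IMR-32, 98.7% in SH-SY5Y, 90.6% in CHP-902R, 59.2% in SK-N-AS and 24.1% in SJNB-1. They covered 0% in LAN-2, N206 and CLB-GA, so lines with and without a peak were found in both *MYCN* groups. The highest score of a line at this exon was 128 in IMR-32 and 130 in SH-SY5Y, above those of 93.9% and 94.5% of the peaks in their lists. In CHP-902R, SJNB-1 and SK-N-AS it was 78.5, 76.6 and 62.1, above 63.9%, 68.2% and 38.4% of their lists. A stretch common to the 5 lines is given.
CIITA, exon 11, chr16:11001719-11001918, plus strand, 15 CpG: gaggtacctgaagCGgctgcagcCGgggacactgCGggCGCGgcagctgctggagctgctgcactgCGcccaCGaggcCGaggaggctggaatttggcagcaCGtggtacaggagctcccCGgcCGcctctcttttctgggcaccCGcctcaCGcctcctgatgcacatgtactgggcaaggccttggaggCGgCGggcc
Exon 6 of *NLRC5*, the longest exon of that gene with the same length of 1651 bp, holds 43 CpG (2.60 per 100 bp). Peaks covered 59.4% of it in LAN-2, 28.2% in N206, 32.5% in SH-SY5Y and 29.5% in SJNB-1 and 0% in the other 4 lines. The scores of 123 in LAN-2 and 114 in SJNB-1 were above those of 89.0% and 92.9% of the peaks in their lists. Those of 73.6 in SH-SY5Y and 54.2 in N206 were above only 52.6% and 13.9%. Of the 5 lines with a peak in exon 11 of *CIITA*, SH-SY5Y and SJNB-1 also had one here. Coding exons of at least 1000 bp with a peak in at least 4 lines were common, at 37.0% of 2992.

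**Figure D5:**
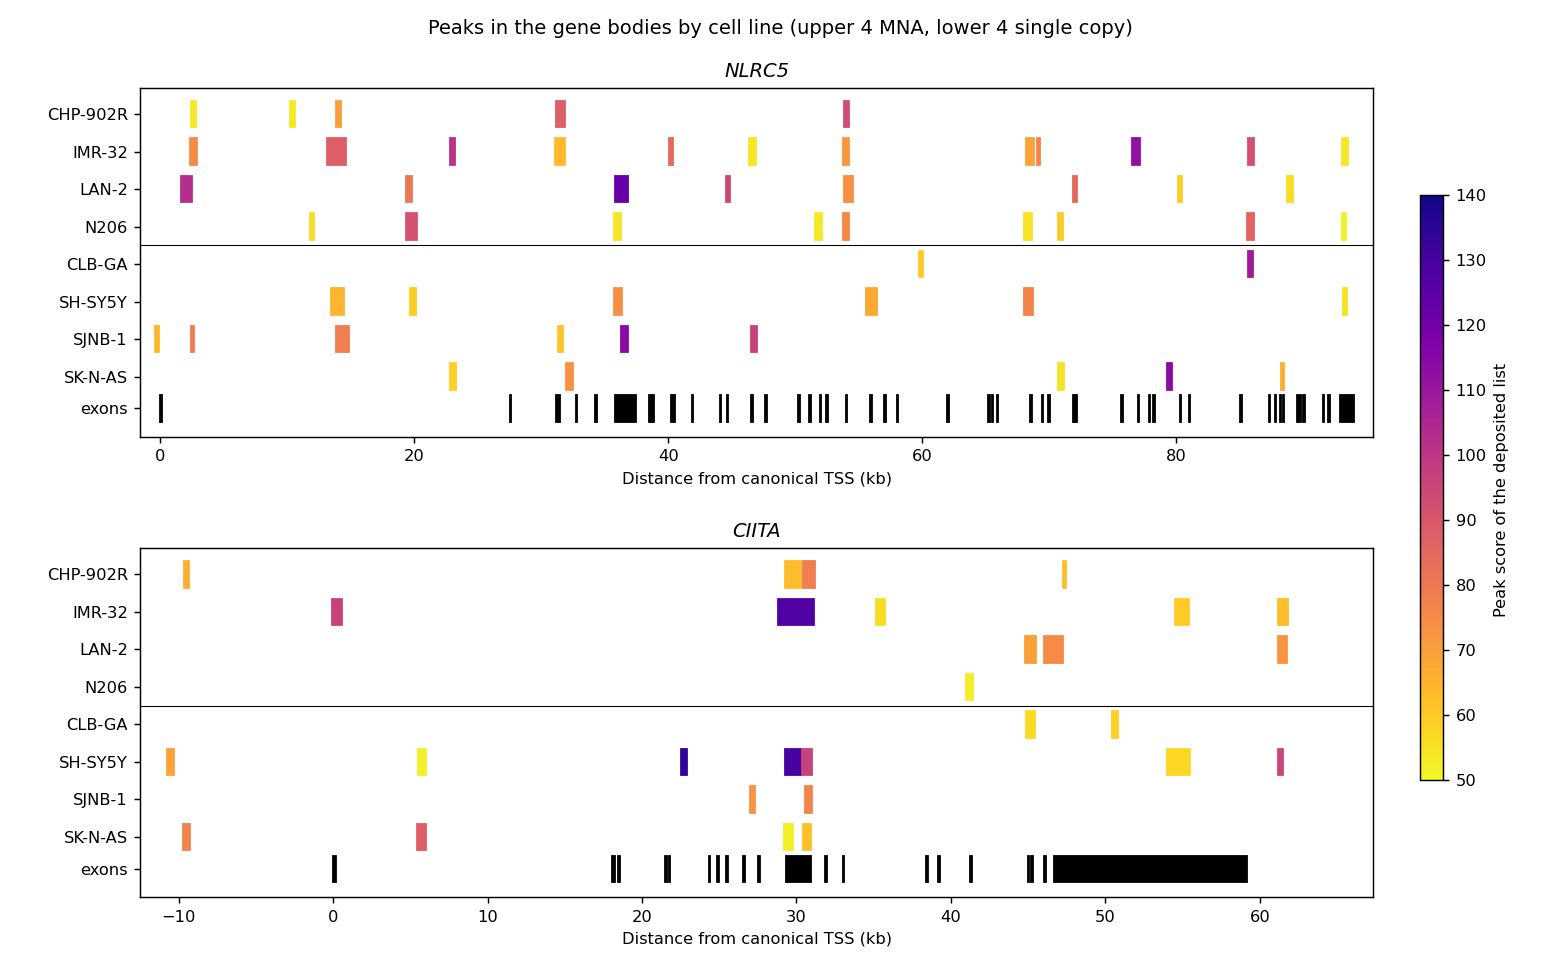
Boxes give the peaks of each cell line along NLRC5 and CIITA against the distance from the canonical TSS in kb, coloured by peak score (to be compared within a line), with the exons of the canonical transcript below (upper 4 rows MNA, lower 4 rows single copy). The column of CIITA boxes at about 30 kb is exon 11 in 5 lines, and the column of NLRC5 boxes at 54 kb is exon 20 in the 4 MNA lines.

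Merging overlapping peaks of all lines gave 55 regions at the 9 genes. A single line held the peak in 31 of them (56.4%, against 56.2% of 369287 regions genome-wide). There were 13 regions of 2 lines (23.6%, against 21.6%) and 6 of 3 lines (10.9%, against 10.4%). Another 4 had 4 lines (7.27%, against 5.36%) and 1 had 5 lines (1.82%, against 2.96%). Merging can chain peaks, and the region at exon 6 of *NLRC5* has no stretch common to its 4 lines. Of the 13 regions of 2 lines, SJNB-1 and SK-N-AS shared 3, all in *TAP2* and *PSMB9*, where this pair shared 2.45% of the regions of 2 lines genome-wide. CHP-902R and LAN-2 also shared 3, in *HLA-C*, *TAP2* and *CIITA*, beside 5.76% genome-wide. These pairs were picked out after the values were seen, and neighbouring regions of a line are not independent.

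Of 45 further genes of antigen presentation, a promoter peak at any TSS was found for 30 in at least 1 line and for 17 in at least 4 lines, beside 73.9% and 39.5% of protein-coding genes. Their median was 2.00 lines, against 3.0 for the 9 genes and 2.00 for all protein-coding genes. None of the 45 separated the *MYCN* groups, and none had p under 0.05 in Fisher's exact test. Among 7 genes of peptide loading and trimming, *TAPBP* (tapasin, which bridges the transporter and class I molecules) and *CANX* (the chaperone calnexin) had promoter peaks in all 8 lines. They were the only genes of the 45 with this pattern, beside 6.11% of protein-coding genes. The peaks of *TAPBP* were in the canonical window in each line, in contrast to those of *CANX*, which were in it in none. *ERAP2*, a peptidase that trims peptides, had promoter peaks in 6 lines, *PDIA3* in 5 and *CALR* in 4, which both encode proteins of the loading complex. In the canonical window, *ERAP2* had a peak in 2 lines, *PDIA3* in 3 and *CALR* in 0. Of the 45-base windows there, 95.2%, 69.4% and 100% are unique.

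Among 6 proteasome genes, *PSME1*, an activator subunit, had a promoter peak in 5 lines and *PSMB7*, a subunit of the constitutive proteasome, in 4. Their canonical windows had a peak in 1 line and in 3 lines. Of 12 regulators, 8 had one in at least 4 lines, beside 39.5% of protein-coding genes, among them *RFXANK* in 7 lines, *RFX5*, *NFYC*, *IRF1* and *IRF2* in 5, and *CREB1* and *RELA* in 4. Most of these peaks were at other annotated starts. In the canonical window, *RFX5* had a peak in 3 lines, *RFXANK* and *CREB1* in 2, *IRF2* in 1, and *NFYC*, *IRF1* and *RELA* in 0. At any TSS, *RFX5*, a DNA-binding subunit of the RFX complex, had a promoter peak in 4 MNA lines and in SJNB-1 among the single copy lines (exact p = 0.143, adjusted p = 1.00). Of the 4 genes of the interferon gamma receptor and its kinases, *JAK1* had a promoter peak in 7 lines and *IFNGR2* in 6. The canonical window had a peak in 1 line for *JAK1* and in 3 for *IFNGR2*.

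Of 5 class I related genes, 4 had promoter peaks in 1 line or more and none in 4 or more, beside 73.9% and 39.5% of protein-coding genes. The 11 class II genes had fewest, with promoter peaks in 1 line or more for 2, beside the same 73.9%. These were *HLA-DOA* and *CD74* (the invariant chain), both in SH-SY5Y and SJNB-1, and they were named after their values were seen. The canonical windows of the class II genes held 0.680 to 2.76 CpG per 100 bp, which is below the median of protein-coding genes, and 89.8% to 100% of their 45-base windows are unique. In IMR-32, the line with 5 canonical start peaks at the 9 genes, 4 of the 45 genes had one, against 4 to 9 in the other lines, so IMR-32 was not high on that list.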

How the data were processed

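MBD-seq peak lists of 8 NB cell lines were analysed, 1 sample each, grouped as MNA or *MYCN* single copy by the labels. Paired-end reads were aligned by the authors to GRCh37 with Bowtie 0.12.7, and MACS called the peaks of each line separately. In the deposited lists, each peak has a position and a score that rises as its p-value falls (lowest 50.0). The options of the peak calling and an input control are not given in the sources used here. Read counts were not analysed here, so peak calls have no interval, and absence is limited by a depth that the study gives only as a range over the lines.

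A peak counted when it overlapped the promoter window of any TSS (1500 bp before to 1000 bp after it), or the gene body, by 1 bp (GENCODE release 44 in GRCh37 coordinates). Tests were run on all 64486 genes with Python 3.11.15, numpy 2.4.6, pandas 2.3.3 and scipy 1.17.1, with Benjamini-Hochberg adjustment. Unique 45-base windows were counted with numba 0.67.0. The overlap and test steps were tested on simulated data. The alternatives used only scores of at least 100, the top 70816 peaks of each list, peak midpoints, windows to 500 bp downstream, 1 TSS per gene, peaks within 500 bp merged, 7 lines without CHP-902R, which the text of the study does not list in its comparison, and each line left out. Values were named for all 9 genes, and for genes of the list of 45 with a promoter peak in at least 4 lines or separating the groups, except 1 that is not reported here. The 9 genes and the lists were chosen with earlier results of these data known. The alternatives for the canonical starts of IMR-32 and for the *NLRC5* region, and the long exons, were chosen after seeing the data.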

Additional observations from a re-analysis of the deposited data

Results flagged for a closer look

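The number of the 9 genes with a peak at the canonical TSS set 1 line apart in each *MYCN* group. IMR-32 had 5 among the MNA lines, and SJNB-1 had 1 among the single copy lines, while the other 3 lines of each group had 0. The gap to the nearest line was the whole range of the group in both cases (ratio 1.00 in Dixon's test), which any count above 0 gives when the other lines are tied at 0. These were 2 of 18 groups examined. Chance picks out about 1 in 20 groups of untied values, a rate that does not apply to such ties.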

How the results depend on the processing

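The lists hold presence and score without read counts, so the limit that depth sets in a given line cannot be stated, and 4 lines against 4 cannot give an adjusted p under the threshold here. No paired analysis was possible because the samples are different cell lines, and the labels pair no line of one group with a line of the other.

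The number of genes whose promoter peak separated the groups (127) was 27 at a score of at least 100, 68 with 1 TSS per gene and 295 in the 7 lines without CHP-902R, and 237 to 322 with 1 line left out. For body peaks (77), it was 193 without CHP-902R and 190 to 208 with 1 line left out. Genes with p under 0.05 for promoter cover (436) numbered 67 at a score of at least 100, 214 with 1 TSS per gene and 438 to 620 with 1 line left out. With fewer lines, a pattern has fewer lines to match. The mean number of the 9 genes with a promoter peak was 1.25 higher in the MNA lines, and 0.167 (without IMR-32) to 2.17 higher with 1 line left out. For body peaks the difference was 0.250, and -0.417 to 1.00. The 5 canonical start peaks of IMR-32 fell to 0 at a score of at least 100, where 5.75% of protein-coding genes had one in that line.

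Of 362 values of the 9 genes under an alternative, 351 kept their side of the threshold without a reversal. Some of the 351 went from or to no difference. Another 8 reversed, 1 lost and 2 gained p under 0.05, and the cause was not tested. The 351 do not measure stability, because no test per gene had p under 0.05 with all lines and none could go under 0.0286. The promoters of *B2M* and *TAP1* had a difference of 0 under each alternative. Leaving out CHP-902R was counted under 2 settings with the same values. The *NLRC5* region at exon 20 had a difference of 0 percentage points at a score of at least 100 (exact p = 1.00). *TAP2* promoter cover without N206 differed by 7.56 percentage points (exact p = 0.0286), against 5.67 in all lines, 2.77 at a score of at least 100 or with lists of equal length (exact p = 0.429) and 6.20 with 1 TSS per gene (exact p = 1.00). The p of 0.0286 was fixed once N206, the only MNA line without *TAP2* promoter cover, was left out. The MNA lines minus the single copy lines reversed to 25 percentage points of lines for *PSMB9* promoters in windows to 500 bp, and to 50.0 for *TAP2* bodies at a score of at least 100. Differences in promoter cover reversed for *NLRC5* to -0.227 percentage points (score of at least 100) and -3.26 (1 TSS per gene), and for *CIITA* to -0.0834 (score of at least 100). With 1 line left out they ran from -3.11 (without IMR-32) to 4.33 for *PSMB8*, from -1.09 (without IMR-32) to 1.43 for *PSMB9* and from -0.759 (without LAN-2) to 1.62 for *CIITA*.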
